A study of Homo sapiens with 4 samples.

Results

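The long arm of chromosome 7 (7q), which carries CUX1, was described through its peaks of H3K9me2 (histone H3 carrying 2 methyl groups on lysine 9) in K562 cells. Its members were all deposited broad peaks on chromosome 7 of hg19 that start at 61900000 or later. They numbered 9570 and 10358 in CUX1 knockout replicates 1 and 2, against 12288 and 11976 in control replicates 1 and 2, which makes 44192 of the 1000000 peaks in the 4 lists (4.42%). The stretch from 61900001 to the end of the chromosome at 159138663 is 97.2 Mb long and makes up 3.20% of chromosomes 1 to 22 and X. No peak lay between 58000000 and 61900000: the last peak of the short arm (7p) ended at 57883186 and the first peak of 7q began at 62121161. The short arm, here chromosome 7 below 58000000, served as the comparator and held 23375 peaks.

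K562 is an established human myeloid leukemia line, labelled as bone marrow. The 2 knockout libraries came from cells treated with CRISPR and a guide against CUX1, and the 2 control libraries from cells treated with CRISPR and a guide against HPRT, so both groups carried the CRISPR treatment. The assay was CUT&RUN: in permeabilized cells an antibody against H3K9me2 directs a nuclease to marked chromatin, and the DNA it releases is sequenced. The labels do not say whether the cells were clones or pools, how much CUX1 was left, or whether the replicates were separate cultures, so the spread between replicates may be technical. The title of the series names a reduction of H3K9me2 in CUX1-deficient cells, and the comparison is of knockout with control cells.

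H3K9me2 is written mainly by the methyltransferases EHMT1 and EHMT2, and it lies over broad stretches of mostly silent chromatin, many of them at the nuclear lamina. CUX1 is a homeodomain transcription factor. Loss of the long arm or of all of chromosome 7 is a recurrent lesion of human myeloid neoplasms, and CUX1 is one of the tumor suppressor genes that lie there.

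This arm was chosen from measured values of the same libraries. In earlier results of these data, chromosome 7 had the lowest knockout to control ratio of coverage after chromosomes 20 and X (0.667, against 0.403 and 0.532), and windows of 1 Mb and 100 kb were called lower on 7q. The knockout and control values below are therefore a description, with no test, and the counts of called windows support nothing beyond it.

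CUX1 lies at chr7:101459184-101927250 (hg19) and is 468 kb long. RefSeq gives the gene 2 promoter windows in GRCh38.p14, each of 250 bases before and 50 bases from an annotated start on the plus strand. They are shown because CUX1 is the edited gene. Capitals mark ATCGAT, a core sequence bound by CUX1, and CCAAT, the element after which CUX1 was once named CCAAT displacement protein (both motifs searched on both strands).
CUX1 promoter 1: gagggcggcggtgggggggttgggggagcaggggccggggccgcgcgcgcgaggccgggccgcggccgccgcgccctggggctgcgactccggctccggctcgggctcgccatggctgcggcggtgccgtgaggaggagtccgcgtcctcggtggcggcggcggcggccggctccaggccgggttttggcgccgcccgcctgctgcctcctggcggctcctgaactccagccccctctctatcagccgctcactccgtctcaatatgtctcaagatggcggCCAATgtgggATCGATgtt
CUX1 promoter 2: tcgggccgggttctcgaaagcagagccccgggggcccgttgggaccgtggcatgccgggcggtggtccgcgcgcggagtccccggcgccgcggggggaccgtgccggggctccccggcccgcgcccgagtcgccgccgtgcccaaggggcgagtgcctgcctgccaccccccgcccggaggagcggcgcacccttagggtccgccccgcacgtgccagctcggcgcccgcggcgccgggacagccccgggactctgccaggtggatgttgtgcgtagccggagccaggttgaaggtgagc
The first window held 1 CCAAT, at position 282 of its 300 bases, and 1 ATCGAT, at position 292, which do not overlap. Both lay in the 50 bases from the annotated start and not in the 250 bases before it. The second held neither. Among 35116 RefSeq promoter windows of the same length, 0.763% held ATCGAT and 34.6% held CCAAT on either strand. Both windows were rich in G and C, at 75.3% and 78.3%, against a median of 58.7% over all windows, and they held 39 and 42 CG pairs against a median of 14. Which of the windows belongs to the hg19 start was not determined, and the match of letters is no evidence of binding.

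Peaks covered less of 7q in both knockout libraries. They covered 18.4% and 26.7% of the arm in knockout replicates 1 and 2, against 35.9% and 35.5% in control replicates 1 and 2. The groups did not overlap, and the knockout libraries differed from each other by more than the controls did. The mean was 22.6% ± 5.91 in knockout cells and 35.7% ± 0.267 in control cells (SD, n = 2 each), a difference of -13.2 points and a ratio of 0.632. The short arm was covered to 17.1% and 24.4% in knockout cells and to 27.6% and 28.2% in control cells, a ratio of 0.743. Chromosomes 1 to 22 and X without 7q had a ratio of 0.741, so 7p lay close to the rest of the genome and 7q below both. No input or other DNA data were used here, so fewer copies of the arm and less of the mark per copy cannot be told apart, in this ratio or in any ratio of 7q to 7p or to the genome below.

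Each list was cut at 250000 peaks and ended at a different strength, at a lowest −log10 p of 1.49 and 1.35 in knockout replicates 1 and 2 and of 1.25 and 1.27 in control replicates 1 and 2. With 1 limit of −log10 p for all 4 lists, set at the highest of these ends, 7q was covered to 18.4% and 16.0% in knockout cells and to 16.2% and 17.8% in control cells. The groups then overlapped and the difference turned to 0.13 points. The lower absolute coverage of 7q thus held in the lists as deposited and not at a common limit of −log10 p. With the lists cut to an equal covered length it was smaller but remained, at 18.4% and 19.5% in knockout cells and 24.1% and 23.8% in control cells.

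The balance between the arms did not depend on the list in this way. In the lists as deposited 7q was covered 1.07 and 1.10 times as densely as 7p in knockout cells, against 1.30 and 1.26 times in control cells. On the log2 scale the ratio of 7q to 7p was 0.10 and 0.13 in knockout cells and 0.38 and 0.33 in control cells, a difference of -0.24. At the common limit of −log10 p it was 0.10 and 0.16 in knockout cells and 0.61 and 0.53 in control cells, a difference of -0.44. Both knockout values lay below both control values in all 5 versions of the lists. At the common limit, coverage of 7p was higher in knockout cells, at 17.1% and 14.2%, than in control cells, at 10.6% and 12.4%.

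**Figure D1:**
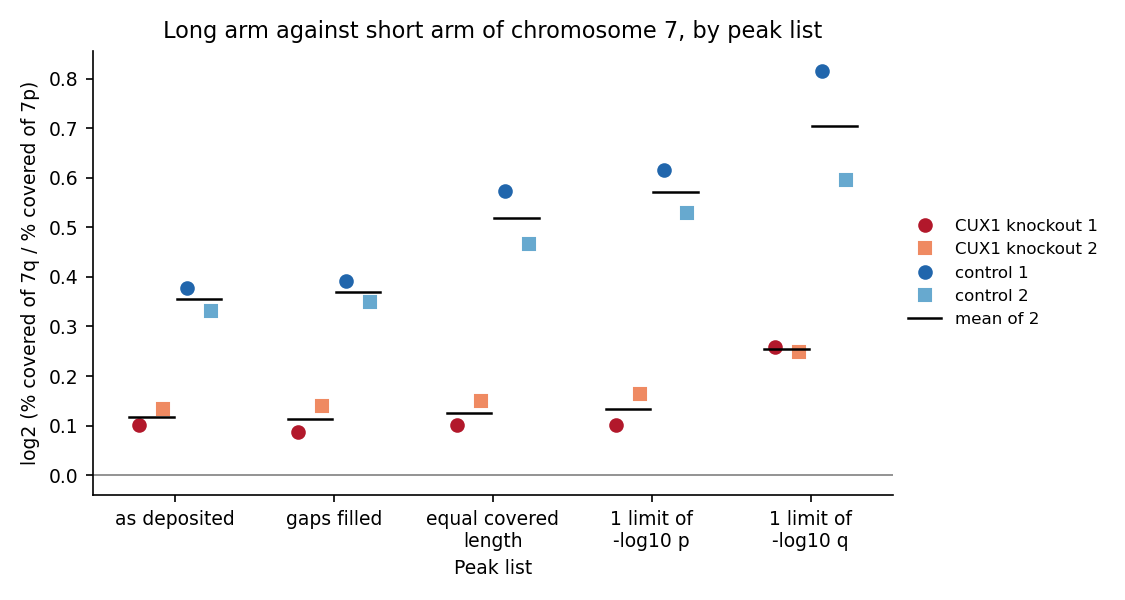
Log2 ratio of the percent of 7q covered to the percent of 7p covered in each library (points; bars are means of 2 libraries), for the lists as deposited, with gaps up to 2000 bp filled, cut to an equal covered length, and cut at 1 limit of −log10 p or of −log10 q. The knockout points lie between 0.09 and 0.26 and the control points between 0.33 and 0.82, and in no list do the groups overlap.

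Against the whole genome the 2 arms behaved differently. The log2 ratio of 7q to chromosomes 1 to 22 and X was 0.40 and 0.47 in knockout cells and 0.65 and 0.67 in control cells, so 7q was more densely covered than the genome in every library and less so in the knockouts. For 7p the same ratio was 0.30 and 0.34 in knockout cells and 0.28 and 0.34 in control cells, and the groups overlapped. At the common limit of −log10 p both knockout values of 7p lay above both controls, at 0.30 and 0.32 against 0.19 and 0.29.

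Fewer and narrower peaks both went into the lower coverage of 7q. The arm held 98.4 and 106.5 listed peaks per Mb in knockout cells and 126.4 and 123.2 in control cells, a ratio of 0.821. On 7p the density was 98.8 and 102.7 peaks per Mb in knockout cells and 99.6 and 101.9 in control cells, which overlapped. The median peak on 7q was 1490 and 2119 bp wide in knockout cells and 2411 and 2496 bp wide in control cells. Narrower peaks were seen on 7p too, with medians of 1375 and 1934 bp in knockout cells and 2345.5 and 2347.5 bp in control cells, and in the genome as a whole, with 1324 and 1900 bp in knockout cells and 2335 and 2275 bp in control cells. The smallest width in a list was 263 and 339 bp in the knockout lists and 362 and 369 bp in the control lists, and its part in the narrower peaks was not tested. The difference in density was thus seen on 7q and not on 7p, and the difference in width on both arms.

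Wide peaks were the scarcest. Peaks of at least 5000 bp on 7q numbered 308 and 930 in knockout cells and 1632 and 1574 in control cells, and those of at least 10000 bp numbered 4 and 31 in knockout cells and 91 and 94 in control cells. On 7p the counts at 10000 bp were 5 and 17 in knockout cells and 32 and 43 in control cells. Over chromosomes 1 to 22 and X they were 88 and 724 in knockout cells and 1916 and 1657 in control cells. The knockout to control ratios at 10000 bp were 0.189 on 7q, 0.293 on 7p and 0.227 over all these chromosomes. At 5000 bp they were 0.386, 0.459 and 0.435, so the scarcity of wide peaks was not particular to 7q. The widest peak of the arm measured 14368 and 16842 bp in knockout cells and 18511 and 17249 bp in control cells. By the caller's own measure most peaks were weak: 0 and 12 peaks of 7q reached q of 0.05 in knockout cells, and 0 and 6 in control cells. The median −log10 p of the 7q peaks, a value of the authors, was 1.664 and 1.541 in knockout cells and 1.479 and 1.498 in control cells, an order that the different list ends also had.

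The serial numbers in the peak names give a count that does not stop at the list's end, provided that they number every peak called. No source used here states that they do. By that count 7q held 18123 and 15586 peaks in knockout cells and 15626 and 15318 in control cells, and the groups overlapped. The lists kept 52.8% and 66.5% of these in knockout cells and 78.6% and 78.2% in control cells. On 7p they kept 55.8% and 66.3% in knockout cells and 61.4% and 66.1% in control cells. The log2 ratio of 7q to 7p in peaks per Mb was -0.01 and 0.05 in knockout cells and 0.34 and 0.27 in control cells for listed peaks, and 0.08 and 0.05 in knockout cells and -0.01 and 0.03 in control cells by serial number. Called peaks were thus about as dense on both arms in every library, and a larger share of those on 7q passed the list's end in the controls than in the knockouts.

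**Figure D2:**
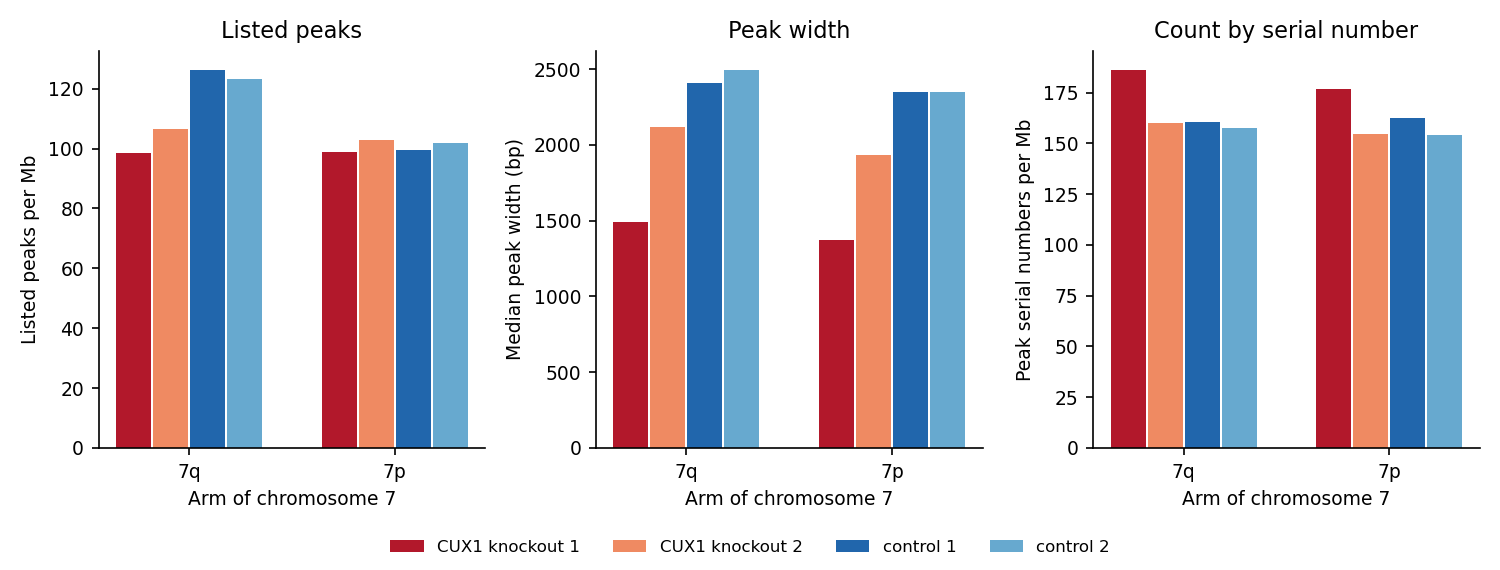
Listed peaks per Mb, median peak width in bp and peak serial numbers per Mb on 7q and 7p, 1 bar per library. The control bars for listed peaks stand at 126.4 and 123.2 on 7q and at 99.6 and 101.9 on 7p, while the knockout bars lie between 98.4 and 106.5 on both arms.

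By the ratio of coverage, the difference was larger on the centromeric side of CUX1, while in points it was nearly equal on both sides and in peaks per Mb it was larger on the telomeric side. The 39559183 bp from the start of the arm to CUX1 were covered to 15.3% and 20.9% in knockout cells and to 31.3% and 31.3% in control cells, a ratio of 0.578. The 57211413 bp from CUX1 to the telomere were covered to 20.6% and 30.8% in knockout cells and to 39.1% and 38.5% in control cells, a ratio of 0.662. The log2 ratio of the telomeric to the centromeric side was 0.43 and 0.56 in knockout cells and 0.32 and 0.30 in control cells. Against 7p, the centromeric side had a log2 ratio of -0.16 and -0.22 in knockout cells and of 0.18 and 0.15 in control cells, a difference of -0.36. It was thus less densely covered than 7p in both knockouts and more densely in both controls. The telomeric side was more densely covered than 7p in all 4 libraries, with 0.26 and 0.34 in knockout cells and 0.50 and 0.45 in control cells, a difference of -0.17. At the common limit of −log10 p the differences were -0.52 on the centromeric and -0.40 on the telomeric side. Peaks of at least 10000 bp numbered 0 and 3 on the centromeric side in knockout cells and 34 and 30 in control cells, against 4 and 28 on the telomeric side in knockout cells and 56 and 64 in control cells. Listed peaks per Mb numbered 94.2 and 93.9 on the centromeric side in knockout cells and 111.8 and 112.3 in control cells, a ratio of 0.840. On the telomeric side they numbered 101.3 and 115.4 in knockout cells and 136.7 and 130.8 in control cells, a ratio of 0.810. The differences in coverage were -13.2 points on the centromeric and -13.1 points on the telomeric side.

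In blocks of 10 Mb, a division made after the data were seen, the ratio of coverage was lowest toward the centromere. The first 3 blocks, from 61900001 to 90000000, had knockout to control ratios of 0.545, 0.567 and 0.542. The other 7 blocks had ratios between 0.636 and 0.696, with the highest at 130000001-140000000. Relative to 7p of the same library, the log2 difference was -0.44, -0.38 and -0.45 in the first 3 blocks and between -0.23 and -0.10 in the rest. In points the first 2 blocks had the smallest falls, -12.0 and -11.7, and in listed peaks per Mb they had the highest ratios, 0.861 and 0.875, against 0.785 to 0.840 in the rest. The second block was covered to 13.3% and 17.4% in knockout cells and to 27.3% and 26.9% in control cells, about as densely as 7p in the controls. The block at 130000001-140000000 was covered to 22.7% and 33.8% in knockout cells and to 41.1% and 40.2% in control cells. CUX1 lies in the block from 100000001, whose ratio of 0.636 was close to the 0.632 of the arm, so no block-sized minimum lay at the edited gene.

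**Figure D3:**
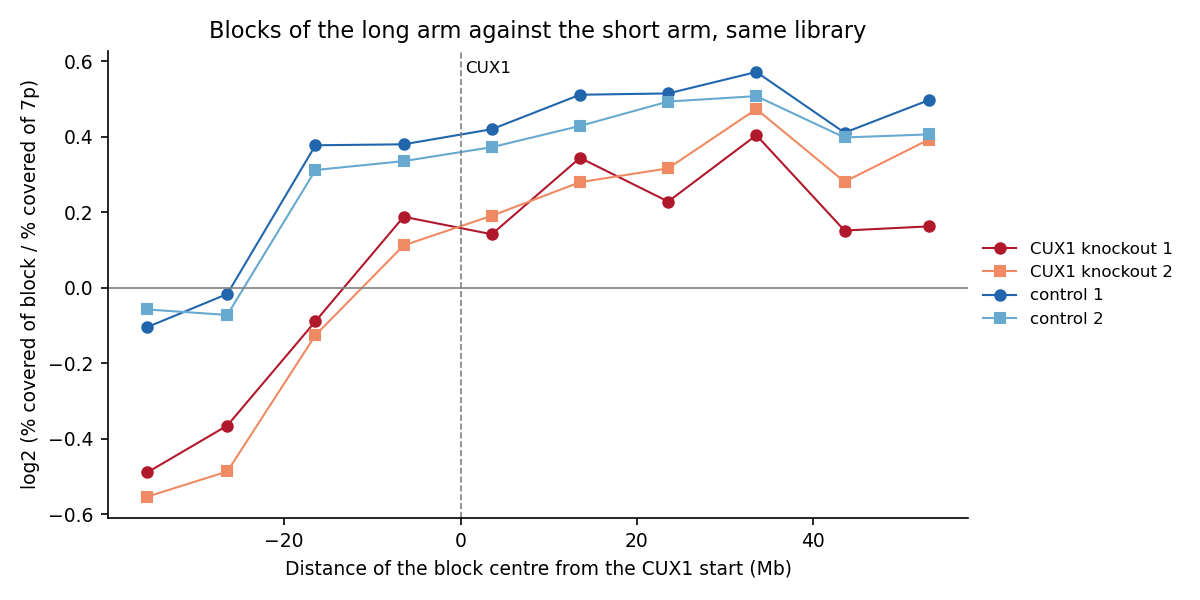
Log2 ratio of the percent covered of each 10-Mb block of 7q to the percent covered of 7p in the same library, against the distance of the block centre from the CUX1 start in Mb (dashed line: CUX1). In every block the knockout points lie below the control points, by -0.45 to -0.38 on average in the first 3 blocks and by -0.23 to -0.10 in the other 7.

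At 1 Mb, all 98 windows of 7q had both knockout values below both control values, where 63.7% of the 2830 windows tested genome-wide did. On 7p 44 of 58 windows did and 14 overlapped. The difference on 7q ranged from -19.0 to -1.99 points with a median of -13.2, against a median of -6.32 over all windows. Of the 98 windows, 8 were called lower and 0 higher by limma (Benjamini-Hochberg over all windows), where 4.24% of all windows were called lower, and on 7p 0 of 58 were called, with 8 at an unadjusted p under 0.05. At 500 kb, 19 of 194 windows of 7q were called lower, where 3.69% of all were, and 183 had groups apart in that direction, where 57.1% of all did. On 7p 2 of 116 windows of 500 kb were called lower by limma, with 21 at an unadjusted p under 0.05, and 0 of 576 of 100 kb were called. An unadjusted p under 0.05 (limma) was found in 55 of 98 and 99 of 194 windows of 7q at 1 Mb and 500 kb. Over all windows it was found in 486 of 2830 and 1054 of 5616. At 100 kb, 4 of 956 windows were called lower, where 0.098% of all were, and 702 had groups apart in that direction, where 43.3% of all did. These shares stand beside counts that chose the arm, and no reading is made of them.

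The places of the called windows along the arm are described here, and nothing is read from them, since such calls chose the arm. All 8 called windows of 1 Mb and all 19 of 500 kb lay on the centromeric side of CUX1, among 39 and 77 tested there. On the telomeric side 0 of the 58 and 115 were called by limma. Unadjusted p (limma) was under 0.05 in 32 and 52 windows of the centromeric and in 22 and 45 of the telomeric side. Over all windows tested it was under 0.05 in 486 of 2830 and 1054 of 5616. At 100 kb the 4 called windows were 2 on each side. The median difference in points was alike on both sides at 1 Mb, at -13.3 on the centromeric and -13.3 on the telomeric side, while the median ratio was 0.574 and 0.666. For each side as a whole, the SD of coverage was 3.99 and 7.27 points in knockout cells and 0.0160 and 0.410 points in control cells. The part of this spread in the place of the calls was not tested. The called windows of 500 kb began near the start of the arm, at chr7:62500001-63000000. The lowest ratio, 0.308, was at chr7:63000001-63500000, where coverage was 2.88% and 5.67% in knockout cells and 13.8% and 14.0% in control cells. The longest run of consecutive called windows spanned chr7:70500001-72000000. The last called window toward CUX1 was chr7:98000001-98500000, with 16.4% and 14.5% in knockout cells and 37.0% and 36.1% in control cells. At 1 Mb, a ratio under 0.5 was seen in 7 windows of the centromeric side and in 0 of the telomeric side. Leaving out 1 library leaves a group whose spread is not measured, so calls from such fits are not counted here. The difference of 7q coverage was then -17.3 to -8.98 points. At a common limit of −log10 p or q the count of called windows at 1 Mb was 0.

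**Figure D4:**
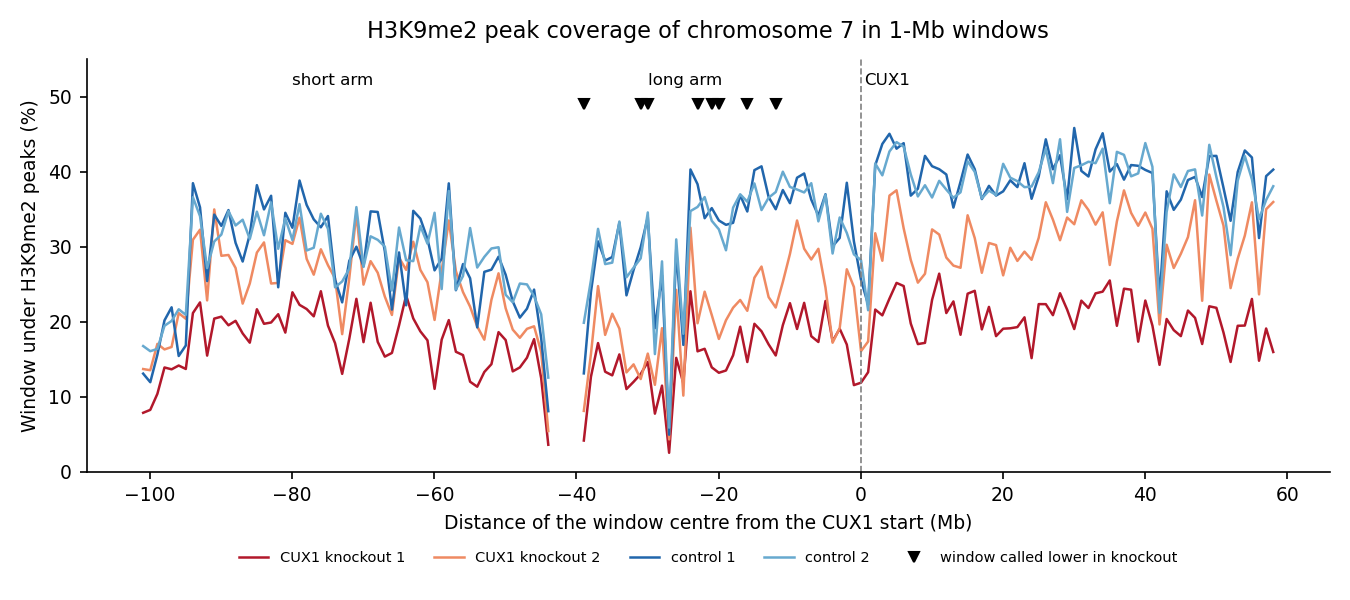
Percent of each 1-Mb window under H3K9me2 peaks in the 4 libraries, against the distance of the window centre from the CUX1 start in Mb, with the peak-free gap between the arms left blank. Triangles mark the 8 windows called lower in knockout cells, all on the long arm before CUX1, and the knockout lines lie below the control lines in all 98 windows of the long arm.

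The largest fall at 1 Mb was at chr7:71000001-72000000, which was covered to 14.7% and 15.8% in knockout cells and to 33.9% and 34.6% in control cells. Next came chr7:78000001-79000000, with 16.1% and 19.8% in knockout cells and 38.3% and 35.3% in control cells. In both windows the knockout libraries lay close to each other and the groups far apart. The window at chr7:110000001-111000000, on the telomeric side, had 17.2% and 26.4% in knockout cells and 42.1% and 38.2% in control cells and was not called. The windows at chr7:81000001-82000000 and chr7:89000001-90000000 completed the 5 largest, with ratios of 0.470 and 0.518. The lowest ratio of any 1-Mb window, 0.373, was at the start of the arm, chr7:62000001-63000000, with 4.18% and 8.12% in knockout cells and 13.1% and 19.9% in control cells.

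The most densely covered windows of the controls had ratios above that of the arm. The window at chr7:135000001-136000000 had 24.0% and 34.6% in knockout cells and 45.1% and 43.1% in control cells, a ratio of 0.664. The windows at chr7:105000001-106000000 and chr7:127000001-128000000 had ratios of 0.683 and 0.667. The window that holds CUX1, chr7:101000001-102000000, had 11.9% and 16.1% in knockout cells and 25.6% and 28.2% in control cells, a ratio of 0.520, and was not called. The most sparsely covered, chr7:74000001-75000000, had 2.54% and 4.33% in knockout cells and 4.95% and 5.90% in control cells and showed the smallest fall in points. The window at the start of the arm was the next most sparse in the controls, and chr7:72000001-73000000 came after it, with 7.76% and 11.6% in knockout cells and 19.1% and 15.7% in control cells. The highest ratio of any 1-Mb window was 0.782, so no window of that size was higher in knockout cells.

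At 100 kb the median difference was -13.2 points, as at 1 Mb, and single windows reached larger falls. The window at chr7:110100001-110200000 was covered to 9.43% and 10.0% in knockout cells and to 45.6% and 49.7% in control cells. The window at chr7:71500001-71600000 was covered to 9.94% and 14.7% in knockout cells and to 47.7% and 49.7% in control cells, inside the 1-Mb window with the largest fall. The other 2 called windows were chr7:86300001-86400000, with 12.4% and 15.6% in knockout cells and 42.9% and 50.5% in control cells, and chr7:124000001-124100000, with 5.88% and 16.8% in knockout cells and 52.2% and 37.0% in control cells. In all 4 windows both knockouts lay below the lower quartile of their own 100-kb windows of the arm, 13.2% and 20.5%. The controls lay above their upper quartile, 42.6% and 42.0%, except control replicate 2 in the last window. Both knockouts lay above both controls in 1 of the 956 windows, where 4.98% of all windows tested did and 13 of 576 on 7p. It was chr7:136100001-136200000, with 34.4% and 36.0% in knockout cells and 28.9% and 33.6% in control cells. The largest rise of the mean, at chr7:91700001-91800000, came from 1 library, with 15.4% and 39.8% in knockout cells and 21.8% and 21.5% in control cells.

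CUX1 itself was covered to 14.3% and 16.0% in knockout cells and to 33.1% and 27.4% in control cells. The means were 15.2% ± 1.21 in knockout cells and 30.3% ± 4.04 in control cells (SD, n = 2 each), a difference of -15.1 points and a ratio of 0.502, below that of the arm. Among windows of 500 kb, closer to the gene in size, 20 of 77 on the centromeric side and 3 of 115 on the telomeric side had ratios under 0.5. The 2 such windows that hold CUX1 had ratios of 0.562 and 0.482. Ratios below that of the gene were thus seen elsewhere on the arm. At the common limit of −log10 p the gene had 14.3% and 13.2% in knockout cells and 13.8% and 10.6% in control cells, and the groups overlapped. The number of peaks over the gene was similar, at 47 and 41 in knockout cells and 47 and 50 in control cells, while their median width was 1149 and 1471 bp in knockout cells and 2824 and 2174.5 bp in control cells. The widest measured 4734 and 5450 bp in knockout cells and 12224 and 8525 bp in control cells. Over the gene, then, the lower coverage lay in peak width and hardly in peak number.

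The megabases on either side had falls in points smaller than that of the arm. The 1 Mb before CUX1 was covered to 10.2% and 21.9% in knockout cells and to 23.6% and 27.0% in control cells, a difference of -9.20 points and a ratio of 0.636. The 1 Mb after it was covered to 12.7% and 16.6% in knockout cells and to 21.9% and 21.1% in control cells, a difference of -6.89 points and a ratio of 0.680. It includes a stretch of 331 kb without a peak in any library, which lowers its coverage and its difference in points. The 1 Mb after it had both knockouts above both controls at the common limit of −log10 p, with 12.7% and 12.3% in knockout cells and 10.4% and 11.0% in control cells. In gene order on the RefSeq annotation, COL26A1 and MYL10 precede CUX1 and SH2B2 and SPDYE6 follow it. The log2 ratio of the gene to the 1 Mb after it was 0.18 and -0.05 in knockout cells and 0.60 and 0.38 in control cells. At the common limit of −log10 p it was 0.18 and 0.10 in knockout cells and 0.41 and -0.05 in control cells, and the groups overlapped.

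The gene was also divided into 5 equal stretches. The first was covered to 17.5% and 31.6% in knockout cells and to 45.6% and 19.4% in control cells, and the groups overlapped. In each of the other 4 both knockouts lay below both controls, with ratios of 0.439, 0.545, 0.355 and 0.378 along the gene. The fourth stretch had 15.4% and 8.47% in knockout cells and 28.4% and 38.9% in control cells. The start of the gene lay in a stretch of 1.59 kb, chr7:101458891-101460482, that was free of peaks in all 4 libraries, with the nearest peak of any library 294 bp before the start and 1299 bp after it. Of the gene's length, 184 kb (39.2%) were under no peak of any library, so bases without a peak were common over the gene. Peaks of all 4 libraries shared 6.46 kb (1.38%). Another 2.94 kb (0.627%) were in both knockouts and neither control, and 28.9 kb (6.18%) in both controls and neither knockout. Over 7q these shares were 1.59% for both knockouts only and 7.16% for both controls only.

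**Figure D5:**
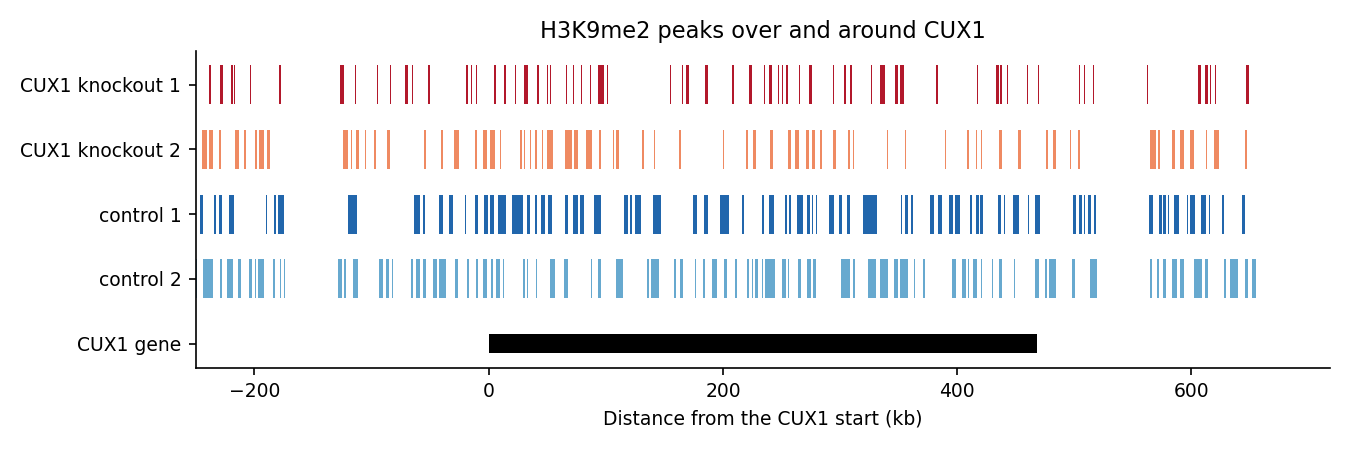
Listed H3K9me2 peaks (colored blocks, 1 row per library) from 250 kb before to 250 kb after CUX1, against the distance from the CUX1 start in kb, with the gene as a black bar. The 47 and 41 knockout peaks over the gene are narrower than the 47 and 50 control peaks, and no library has a peak at the start itself.

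The 4 libraries shared the coarse map of the arm more than its single peaks. Across the 98 windows of 1 Mb, Pearson's r was 0.845 between the knockouts, 0.937 between the controls and 0.839 to 0.867 between a knockout and a control (a description over neighbouring windows, which share base composition and mappability). Across 100-kb windows the same values were 0.496, 0.596 and 0.470 to 0.567. Spearman's rank correlation at 1 Mb was 0.794 between the knockouts, 0.840 between the controls and 0.774 to 0.829 between a knockout and a control. At 100 kb it was 0.444, 0.425 and 0.385 to 0.478, so by rank the controls were not the most alike pair there. The Jaccard index of covered bases, the shared length over the joint length, was 0.173 between the knockouts and 0.288 between the controls, against 0.122 and 0.217 for covers of these lengths placed independently. Between a knockout and a control it was 0.183 to 0.253, against 0.138 to 0.181 for independent placing. Peaks covered 2.13 Mb of the arm in all 4 libraries, 1.55 Mb (1.59%) in both knockouts and neither control, and 6.96 Mb (7.16%) in both controls and neither knockout. On 7p these shares were 1.90% for both knockouts only and 4.62% for both controls only. No length expected from the coverage of each list was computed, so nothing beyond coverage is read from them. No peak of any library covered 31.9% of the arm. Of the single peaks, 49.9% in the knockouts and 72.4% in the controls overlapped a peak of the other library of their group by at least 1 bp, and 13.3% and 22.4% did so over at least 50% of both peaks. Control peaks were wider and covered more of the arm, and no share expected from that was computed, so these shares do not rank the groups.

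Some stretches had no peak in any library. Of these, 12 were at least 100 kb long and lay on the arm. The longest was chr7:74570786-75057441 (487 kb), which lies mostly in the most sparsely covered 1-Mb window and runs past its end. The second, chr7:102114594-102445716 (331 kb), began 187 kb after the end of CUX1, and the third was chr7:72420534-72718098 (298 kb). The files do not separate bases without the mark from bases to which reads could not be assigned. The strongest peak of each list on the arm, by the authors' −log10 p, was a different one in each library. In knockout replicate 2 it was chr7:154719382-154721498, at 5.85 and a fold of 2.99, which peaks of all 3 other libraries overlapped. In control replicate 2 it was chr7:99070079-99071107, at 6.53 and a fold of 3.42, which both knockouts covered in full. In knockout replicate 1 it was chr7:72724848-72725131, 284 bp wide at 4.56, with no peak in any other library. In control replicate 1 it was chr7:158989790-158990375, at 3.96, which all 3 other libraries covered in full.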

How the data were processed

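H3K9me2 was mapped by CUT&RUN in 2 CUX1 knockout and 2 control libraries of K562 cells, grouped by the sample titles. The submitters' processing notes name hg19, MACS2 2.1.0, BWA 0.7.17, deepTools 3.5.1 and SAMtools 1.16.1. Settings, input libraries and read depth are not given in any source used here. The precision set by depth is therefore unknown. The authors deposited 1 broad peak list per library, so peaks were not called on pooled reads. Beside positions, each deposited peak carries a score (10 times its −log10 p, as a whole number), a fold (ratio of enrichment) and −log10 values of p and q, all the authors' own. Peak names carry "sub54" in control replicate 1 and "cux1kd" in both knockouts, which the labels do not explain.

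The percent of each region or window under at least 1 peak was computed. Windows of 100 kb, 500 kb and 1 Mb with a mean of at least 1% were tested genome-wide with limma 3.58.1 (R 4.3.3, eBayes with trend, Benjamini-Hochberg threshold 0.05). The fits were also run on simulated windows drawn from the means and spread of the controls. These held no shift of a whole library, so they cannot show how such shifts affect the calls. Alternatives were 1 limit of −log10 p (1.49) or q (0.0335) for all lists, cutting to an equal covered length (423 Mb), filling gaps up to 2000 bp, quantile normalization, no filter, a replicate block and leaving out each library. Replicate numbers were not shown to pair the libraries. The arm, the windows and the tests were chosen with earlier results of these data known. By the rule for naming windows, the text gives, at 1 Mb, the 5 largest falls, the 3 highest and the 3 lowest in the controls and the window with CUX1, and at 100 kb all that were called and the largest rises. Blocks of 10 Mb, the division of the gene, peak-free stretches, motifs and the count by serial number were chosen after the data were seen. No hg19 annotation or genome was used here, so gene lists and sequences under peaks were not analysed here. Promoter sequences are RefSeq's, from GRCh38.p14.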

Additional observations from a re-analysis of the deposited data

How the results depend on the processing

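All results below are knockout minus control. The difference of 7q coverage was -13.2 points as deposited. It turned to 0.13 points at 1 limit of −log10 p and to 2.30 points at 1 limit of −log10 q, and it was -5.03 points at an equal covered length. Over CUX1 the difference of -15.1 points turned to 1.56 at the limit of p and to 1.26 at the limit of q, and was -4.40 at an equal covered length. The log2 difference of 7q relative to the genome, -0.23, was -0.37, -0.36 and -0.34 under the limits of p and q and the equal length, that of 7q to 7p, -0.24, was -0.44, -0.45 and -0.39, and that of the telomeric to the centromeric side, 0.18, was 0.11 and 0.36 under the limits of p and q. The log2 difference of 7q to 7p in listed peaks per Mb, -0.28, turned to 0.054 by serial number, a count added after the data were seen. Filling gaps kept the coverage results (7q, CUX1, 7q relative to the genome, 7q to 7p and the sides) within the spread between replicates. Leaving out 1 library gave -17.3 to -8.98 points for 7q, -17.9 to -12.2 points for CUX1, and, on the log2 scale, -0.26 to -0.19 relative to the genome, -0.26 to -0.21 for 7q to 7p, 0.12 to 0.25 for the sides and -0.32 to -0.25 for listed peaks per Mb.

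Called windows numbered 8, 19 and 4 at 1 Mb, 500 kb and 100 kb. They numbered 0, 0 and 0 under the limit of p, the limit of q, an equal covered length and no filter. Under quantile normalization they numbered 0, 1 and 0, and with the replicate block 15, 26 and 7. Over all 2830, 5616 and 27554 windows, 37, 44 and 0 were called lower under quantile normalization and 222, 321 and 169 with the block. Without a filter, 51 of 3053, 13 of 6087 and 0 of 30376 were. Unadjusted p was under 0.05 in 1, 4 and 29 windows under the limit of p, in 0, 0 and 2 under the limit of q, in 39, 51 and 98 at an equal covered length and in 48, 87 and 276 without a filter (limma throughout). Under quantile normalization it was under 0.05 in 37, 49 and 87 windows. Over all windows, the counts by limma were 661 of 2769, 1084 of 5474 and 2778 of 26545 under the limit of p. Under the limit of q they were 110 of 2641, 212 of 5200 and 1017 of 25089. At an equal covered length they were 453 of 2808, 729 of 5557 and 2188 of 26977. No filter gave 500 of 3053, 982 of 6087 and 3890 of 30376, and quantile normalization 409 of 2830, 716 of 5616 and 2206 of 27554. Leaving out 1 library gave 0 to 94, 1 to 179 and 2 to 237 calls, where the lone library of a group is taken to vary like the other group. The replicate block rests on numbers alone: deviations of the replicates 1 correlated at 0.17 over all 1-Mb windows and at -0.15 on 7q. The Jaccard index at the limit of p was 0.136 between the knockouts and 0.145 between the controls. The cause of these changes was not tested. Read depth is unknown, most peaks were weak by their q, and with 2 libraries per group no permutation test can go below 0.333.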
